A study of Mus musculus with 8 samples.

Results

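The proteasome is the barrel-shaped protease that degrades ubiquitin-tagged proteins, and 36 genes of its subunits were examined here in mouse calf muscle. They were taken by symbol from a fixed list of core, immune and regulatory subunits, and all 36 were found among the 23008 mouse genes of the deposited table and passed the minimum level for testing. The study injected wild-type C57BL/6J mice with AAV9, a virus serotype that reaches muscle from the blood, carrying an epigenome editing construct named GNDM. In 4 libraries the construct carried guide m31, directed at Lama1, and in 4 a control guide without a target, so both groups had received virus and construct and no library was from uninjected muscle. Injection was into the tail vein at 7 weeks of age by one label and 7 to 12 weeks by another, and the gastrocnemius, the main calf muscle, was taken 11 weeks later. The labels give no dose and do not say whether each library came from its own animal, and p-values therefore describe only how far these libraries vary, which may in part be technical.

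In the proteasome, a core particle (20S) of stacked alpha and beta rings encloses the protease sites, and a regulatory particle (19S) on its end recognises, unfolds and feeds in the substrate. Psmb5, Psmb6 and Psmb7 encode the constitutive catalytic subunits. Interferon-gamma induces Psmb8, Psmb9 and Psmb10, the immune catalytic subunits, which take the places of Psmb5, Psmb6 and Psmb7 in newly made core particles and favour peptides for MHC class I presentation. Skeletal muscle relies on the proteasome for turnover of contractile proteins and for atrophy, and the immune form is abundant in cells of the blood lineage.

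The 8 libraries held 25157486 to 39210248 reads in mouse genes. Lama1 was at 86.5 to 295 normalised reads with m31 and at 0 to 4.18 in controls. Among all 15960 genes tested it was the 1 gene past limma's adjusted threshold of 0.05. All 12 skeletal muscle fibre markers were present, with a summed level of 4263341 to 5832379 normalised reads (reads divided by the authors' size factor of the library). m31 replicate 4 and control replicate 3 stood apart in markers of blood-lineage cells: the 30 listed genes summed to 12285 and 8504 there, whereas the remaining m31 libraries had 5042 to 6204 and the remaining controls 3735 to 4164. The same libraries stood apart in other values. GNDM was at 37989 normalised reads in control replicate 3 and 9802 to 13775 in the other controls, and at 6157 in m31 replicate 4 against 12365 to 24487 in the remaining m31 libraries. The summed level of 14 fibro-adipogenic progenitor and tendon genes was 204910 in m31 replicate 4 against 75813 to 112077 for the rest of that group, and 97704 in control replicate 3 against 62793 to 76032. The part of these differences in the members' values was not tested. No gene of the blood-lineage list was at 0 in every library, and the T, B, NK and neutrophil genes Cd3g, Cd4, Cd8a, Nkg7, Cd79a, Cd79b, Ms4a1, S100a8 and S100a9 stayed under the minimum mean level of 10.

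The promoters of both catalytic pairs with a RefSeq entry are shown because the 2 kinds of subunit are compared below, and because their transcription is known to follow different regulators. NFE2L1 raises constitutive subunit genes through antioxidant response elements when proteasome activity is short, and interferon signalling acts through the gamma-activated sequence and the interferon-stimulated response element. Each line holds the 250 bases before the RefSeq transcription start in build GRCm38.p6, in the direction of the gene. Capitals mark matches on either strand to TGACNNNGC (the antioxidant response element core), TTCNNNGAA (the gamma-activated sequence) or GAAA followed after any 2 bases by GAAA (the interferon-stimulated response element).
Psmb5 (chr14:54617996-54618245, minus strand): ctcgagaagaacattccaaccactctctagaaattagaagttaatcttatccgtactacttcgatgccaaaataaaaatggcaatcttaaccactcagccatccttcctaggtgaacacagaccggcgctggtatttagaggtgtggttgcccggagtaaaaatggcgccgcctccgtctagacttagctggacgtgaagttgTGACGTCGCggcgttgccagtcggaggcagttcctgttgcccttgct
Psmb8 (chr17:34197945-34198194, plus strand): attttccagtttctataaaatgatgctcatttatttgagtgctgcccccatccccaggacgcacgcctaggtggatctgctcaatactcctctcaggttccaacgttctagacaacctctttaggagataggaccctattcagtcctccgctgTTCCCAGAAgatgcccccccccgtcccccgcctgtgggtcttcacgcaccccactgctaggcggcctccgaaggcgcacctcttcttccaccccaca
Psmb6 (chr11:70525107-70525356, plus strand): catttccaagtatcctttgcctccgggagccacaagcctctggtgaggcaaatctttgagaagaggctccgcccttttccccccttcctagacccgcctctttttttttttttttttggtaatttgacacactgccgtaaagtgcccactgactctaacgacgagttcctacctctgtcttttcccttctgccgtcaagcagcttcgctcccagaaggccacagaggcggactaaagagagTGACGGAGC
Psmb9 (chr17:34187331-34187580, minus strand): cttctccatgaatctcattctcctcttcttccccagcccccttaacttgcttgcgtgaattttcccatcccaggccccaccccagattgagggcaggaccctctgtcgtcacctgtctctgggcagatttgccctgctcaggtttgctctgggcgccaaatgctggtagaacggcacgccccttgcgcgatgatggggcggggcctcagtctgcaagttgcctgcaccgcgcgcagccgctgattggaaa
Psmb5 and Psmb6 each held 1 match to TGACNNNGC, Psmb8 held 1 to TTCNNNGAA, and Psmb9 held none of the 3 in this window. RefSeq windows of 300 bases (250 before and 50 after the start) were found for 30 of the 36 members. TGACNNNGC was in 4 of these 30 (Psmb5, Psmb6, Psmc6 and Psmd12), 13.3% against 14.0% of 27025 genes. TTCNNNGAA was in Psmb8 and Psmd2, 6.67% against 9.55%. The paired GAAA motif was in 3 of 30 (Psmb3, Psmd4 and Psme1) against 3.99% of all genes, and in Psme1 it lay after the start. The CCAAT box was in 11 of the 30, 36.7% against 41.1%, and is not capitalised above. These are letter matches, and binding was not measured. Psmb8 and Psmb9 lie close together in the MHC region of chromosome 17, from 34197721 to 34201454 on the plus strand and from 34181987 to 34187764 on the minus strand in GENCODE's GRCm38 annotation. Psmb5 lies on chromosome 14 (54614119 to 54618022) and Psmb6 on chromosome 11 (70525367 to 70527858). The printed windows of Psmb8 and Psmb9 lie wholly inside these GENCODE spans, and that of Psmb5 lies partly inside. For Psmb8 and Psmb9 the sequence before the GENCODE start was therefore not searched.

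The 36 genes together took 0.279 to 0.299% of normalised reads in each library. Levels of different genes were compared per kilobase of the longest principal transcript in GENCODE, for the control guide. The 31 alpha, beta, base and lid subunits other than the immune ones spanned 613 to 3747 normalised reads per kb, a 6.11-fold range with a median of 1742. Psmb6 was highest at 3747 ± 625 (SD, n = 4), followed by the lid gene Psmd8 at 3332 ± 512 and the ATPase gene Psmc3 at 3302 ± 305. The first 3 did not differ beyond their SDs. Psma2, an alpha ring subunit, was lowest at 613 ± 49.7. The PA28 genes, whose ring-shaped product opens the core particle without ATP, were at 842 ± 32.4 (Psme1) and 504 ± 34.7 (Psme2) normalised reads per kb. The 3 immune subunits were the lowest of the 36, at 209 ± 30.7 for Psmb10, 55.2 ± 9.22 for Psmb9 and 46.0 ± 10.1 for Psmb8. Psmb9 and Psmb8 did not differ beyond their SDs. Per kilobase of all annotated exons the same 3 genes were at 161, 20.4 and 22.1, also below the other 33, of which the lowest was Psme2 at 275. The order of the 31 constitutive genes changed with that length. Psmc5 was then the highest at 2360, with Psmb6 at 1597, and Psmd14 the lowest at 430, with Psma2 at 486.

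**Figure D1:**
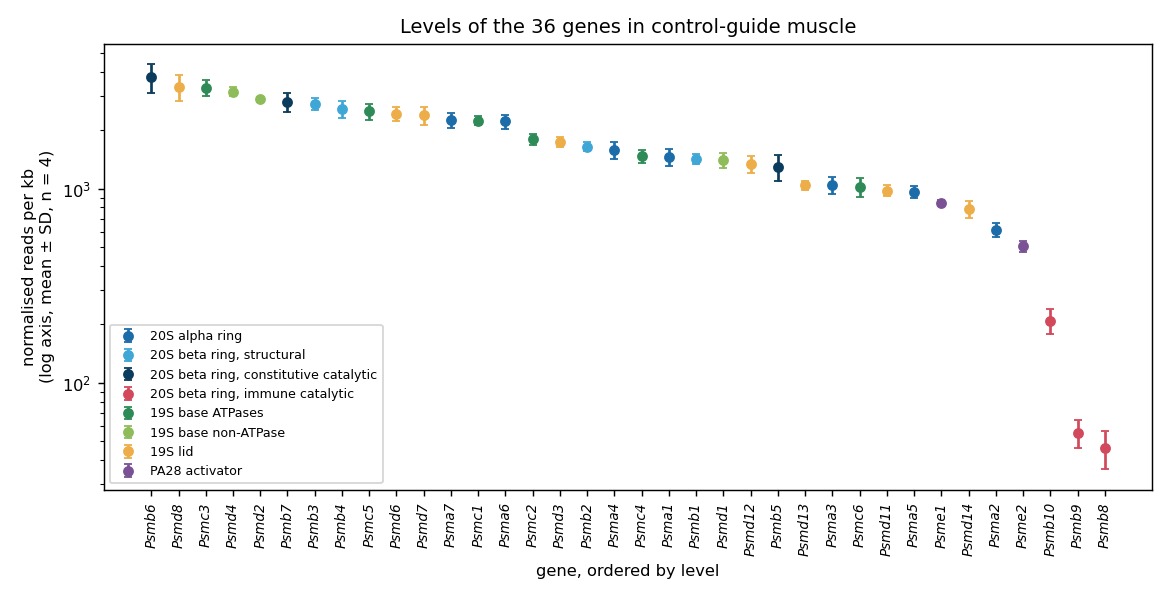
Level of each of the 36 genes in control-guide muscle, in normalised reads per kb on a log axis (mean ± SD, n = 4 libraries), ordered from highest to lowest and coloured by subunit class. The constitutive subunits lie between 613 and 3747, and Psmb10, Psmb9 and Psmb8 lie below every other gene at 209, 55.2 and 46.0.

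The first question of the design, whether muscle given m31 differs from muscle given the control guide, was answered for each member by limma on log2(normalised reads + 1). No member passed in either direction: 0 of 36 had an adjusted p under 0.05, where 0.00627% of all genes tested were called. At an unadjusted p under 0.05 there were 5 members (Psma5, Psmb9, Psmc6, Psmd13 and Psme1), 4 of them lower with m31 and 1 higher. Of all genes, 3.03% had such a p with m31 lower and 3.76% with m31 higher. DESeq2 and edgeR's quasi-likelihood test on the recovered reads also called 0 of 36, with 4 and 5 members at an unadjusted p under 0.05, where they called 0.164% and 0.00618% of all genes. The estimates lay mostly on one side, with 30 of 36 negative (83.3%, against 48.7% of all genes tested). The 36 genes share the same 8 libraries, so their signs are not independent observations. Their median was -0.09 on the log2 scale, equal to -5.99%, and that of all genes was 0.01. The 33 members other than the immune catalytic subunits held all 30 negative estimates.

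**Figure D2:**
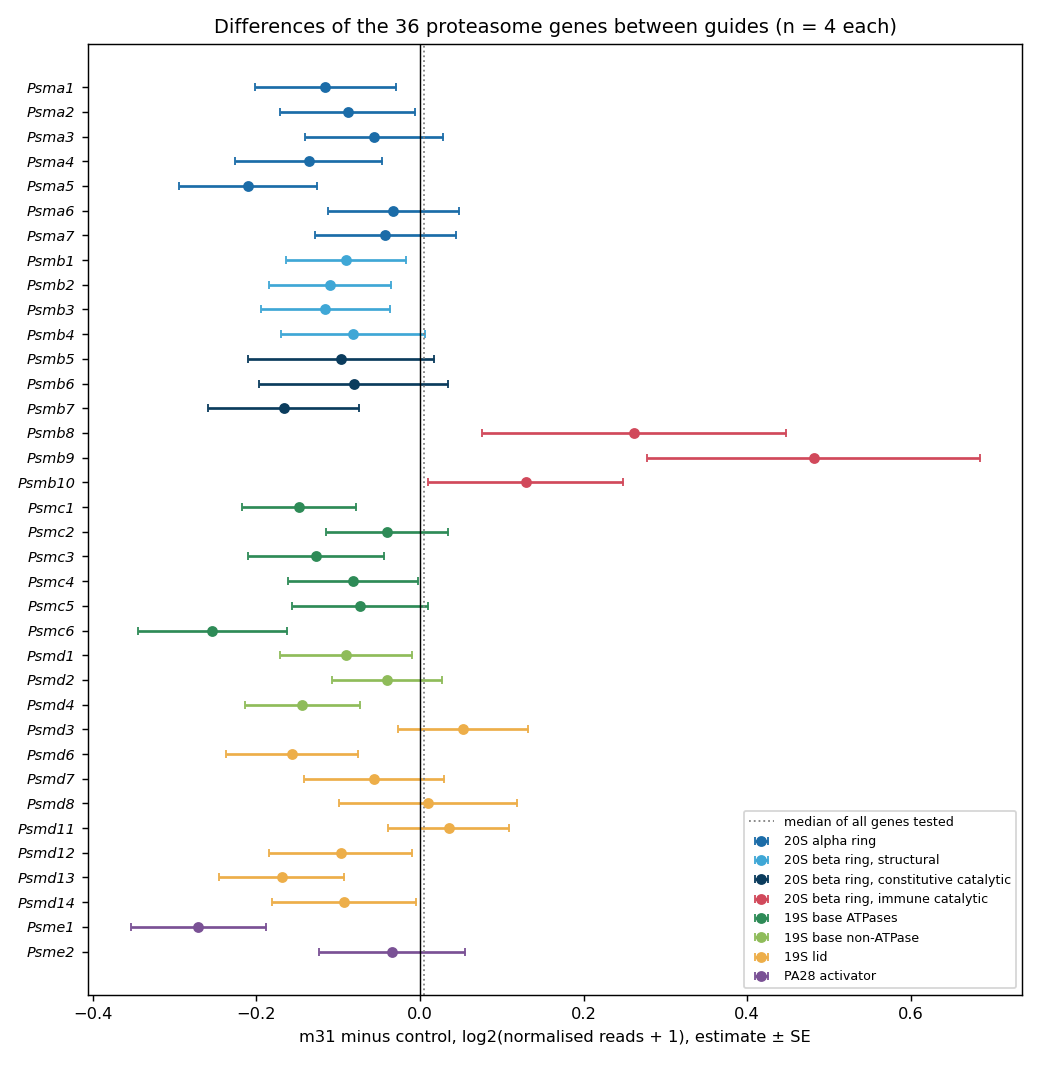
Difference of each of the 36 genes between guides, m31 minus control, on the log2(normalised reads + 1) scale (point: estimate, bar: SE, n = 4 libraries per group), with the median of all genes tested as a dotted line at 0.01. Psmb8, Psmb9 and Psmb10 lie to the right of 0 and 30 of the other 33 to the left, and no gene passed the adjusted threshold.

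In 6 members every m31 library lay below every control library (16.7% of 36, against 2.02% of all genes tested), and in 0 did every m31 library lie above (1.84% of all genes). The 6 were the PA28 gene Psme1, the base ATPases Psmc1 and Psmc6, the ubiquitin receptor Psmd4 and the lid subunits Psmd6 and Psmd13. Leaving out a library can only keep or raise this count. Without control replicate 3, 19 members did not overlap, where 6.74% of all genes did, and without m31 replicate 4 as well it was 21, against 8.62%. These larger counts are no test of the guides, since control replicate 3 was itself low in most of these genes. Without control replicate 4 it was 6, against 3.08%. Control replicate 3 was the lowest of the 4 control libraries for 24 of the 31 constitutive alpha, beta, base and lid genes, and control replicate 4 the highest for 17. The m31 libraries lay closer together: the median of those 31 genes, as log2 values centred on the 8 libraries, was -0.01, -0.07, -0.04 and -0.06 in m31 replicates 1 to 4 and 0.11, 0.05, -0.10 and 0.13 in control replicates 1 to 4. The 12 skeletal muscle fibre markers had medians of -0.01, -0.10, -0.08 and -0.05 with m31 and 0.16, 0.21, -0.20 and 0.08 in controls. All 12 fibre markers had negative estimates between guides with a median of -0.12, and their part in the members' values was not tested. In whole muscle, fewer cells of a type and less RNA per cell cannot be told apart.

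**Figure D3:**
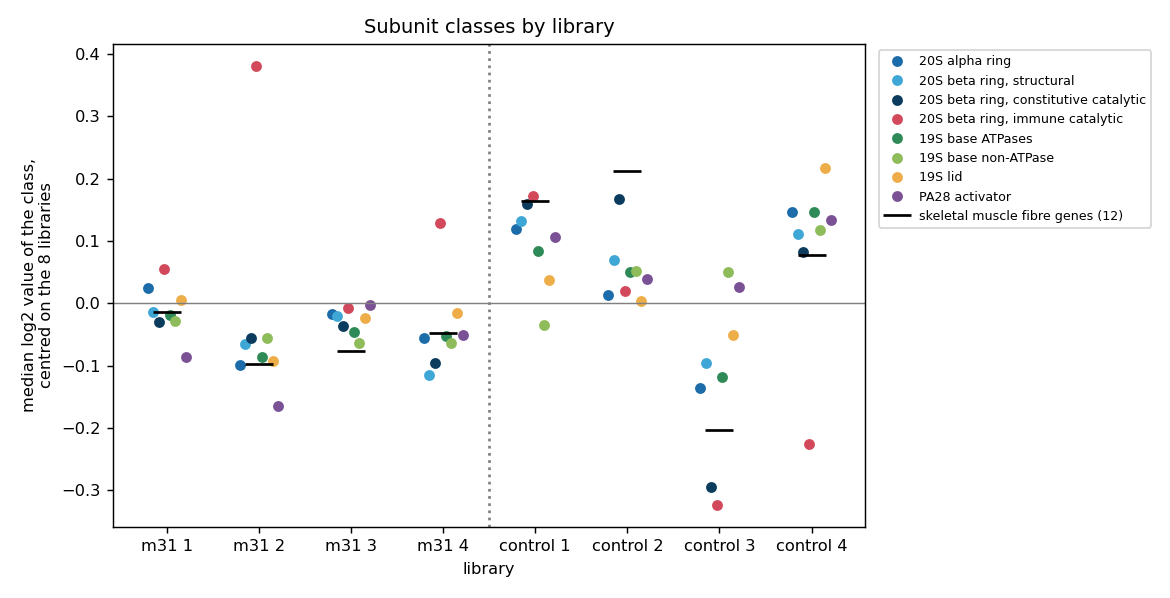
Median log2 value of each subunit class in each library, centred on the 8 libraries (y axis), for m31 replicates 1 to 4 and control replicates 1 to 4, with the 12 skeletal muscle fibre genes as black bars. In the m31 libraries the constitutive classes stay near or below 0, while in the control libraries they spread more widely, with 5 of the 6 constitutive classes below 0 in replicate 3 and all 6 above 0 in replicate 4.

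The catalytic subunits of the constitutive core varied more among control libraries than between guides. Psmb5, the chymotrypsin-like subunit, had normalised reads of 1129, 1070.1, 1089 and 1032 across m31 replicates 1 to 4 and of 1246, 1324, 909 and 1182 in control replicates 1 to 4. The m31 values fell within the control range, which control replicate 3 opened at its low end. The log2 difference was -0.10 ± 0.11 (SE, limma's adjusted p = 0.893). Psmb6, the caspase-like subunit, stood at 2815, 2877, 2801 and 2688 with m31 and at 3444, 3229, 2295 and 2992 in controls. Again 3 control libraries were above all m31 libraries and control replicate 3 was below them (log2 difference -0.08 ± 0.12, limma's adjusted p = 0.913). Psmb7, the trypsin-like subunit, had 2946, 2934, 2677 and 2974 normalised reads with m31 and 3366, 3177, 2782 and 3674 in controls, and the groups overlapped only through control replicate 3 (log2 difference -0.17 ± 0.09, limma's adjusted p = 0.782).

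The immune catalytic subunits were the only class with positive estimates throughout, and none of the 3 passed. Psmb8, the counterpart of Psmb5, stood at 81.7, 105, 80.1 and 88.1 normalised reads with m31 and at 94.6, 78.2, 71.9 and 54.6 in controls. The groups overlapped, and control replicate 4, the lowest, rested on 41 reads (log2 difference 0.26 ± 0.19, limma's adjusted p = 0.832). Psmb9, the counterpart of Psmb6, stood at 93.1, 115, 77.4 and 139 with m31 and at 77.0, 88.7, 58.4 and 74.6 in controls. Its highest value was in m31 replicate 4, and m31 replicate 3 fell inside the control range. The log2 difference was 0.48 ± 0.20 (limma's adjusted p = 0.720), 0.34 without m31 replicate 4 and 0.23 without control replicate 3 as well. Counting error alone was wide at these levels: the 85 reads of m31 replicate 3 gave an exact 95% interval from 61.8 to 95.7 normalised reads, and the 93 reads of control replicate 2 one from 71.6 to 109. Psmb10, the counterpart of Psmb7, stood at 295, 310.0, 300.4 and 284 with m31 and at 321, 290.0, 227 and 259 in controls, with the highest single value in control replicate 1 (log2 difference 0.13 ± 0.12, limma's adjusted p = 0.870). Reads in exons shared with another gene cannot all be assigned, and no strand setting is given. Of Psmb8's exonic bases 14.7% overlap the antisense gene Gm20496, and of Psmb9's 5.79% overlap Tap1. The constitutive counterparts share bases too: 12.1% of Psmb5's overlap Mir686, on the same strand, and 11.8% of Psmb7's overlap Nek6. In all, 11 of the 36 members share some bases in this way.

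**Figure D4:**
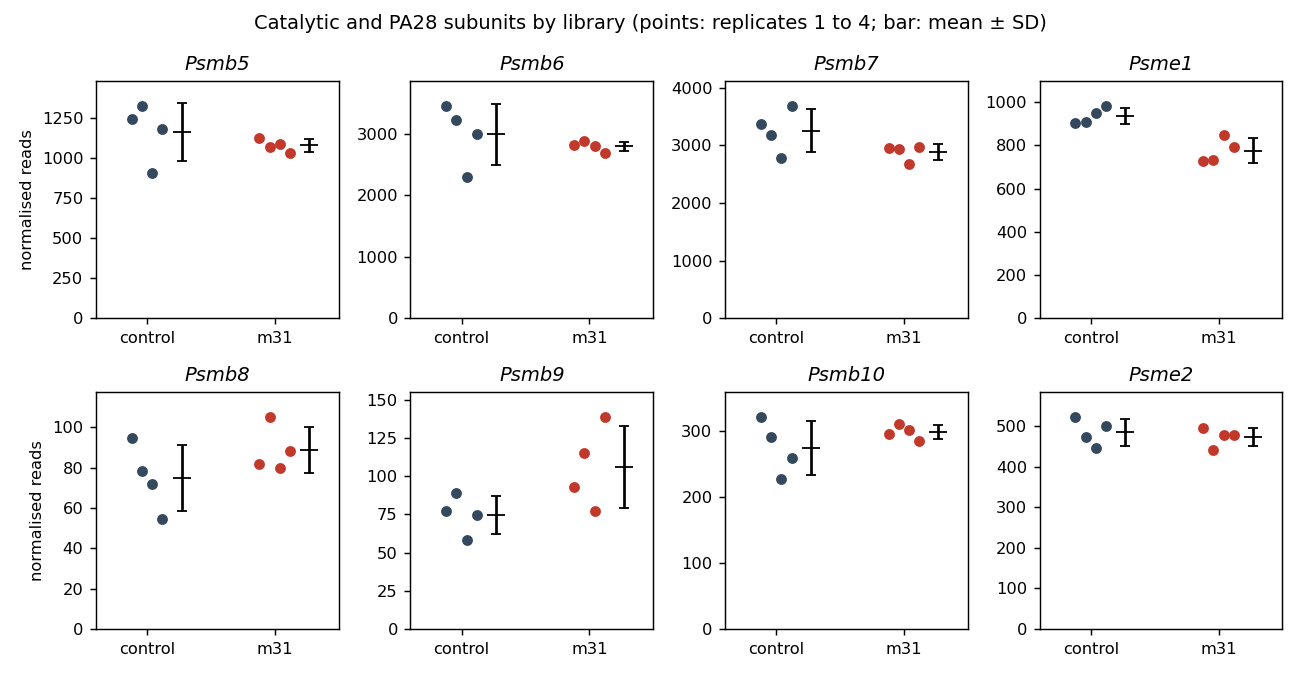
Normalised reads (y axes from 0) of the 3 constitutive catalytic subunits and Psme1 (top row) and of the 3 immune catalytic subunits and Psme2 (bottom row) in the 4 control and 4 m31 libraries, with mean ± SD beside the points. Psme1 is the 1 of these 8 genes whose groups do not overlap, at 729 to 849 with m31 and 905 to 981 in controls.

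Since each immune subunit replaces 1 constitutive subunit, the ratio of each pair was compared between guides, as per-kb levels in percent. The percents depend on the transcript length used, which is the same in every library and leaves the comparison between guides unchanged. Per kilobase of all annotated exons, the control guide had means of 22.1 for Psmb8 and 1296 for Psmb5, and of 161 for Psmb10 and 950 for Psmb7. Psmb9 was at 1.95, 2.36, 1.63 and 3.04% of Psmb6 in m31 replicates 1 to 4 and at 1.32, 1.62, 1.503 and 1.47% in control replicates 1 to 4. All m31 libraries lay above all control libraries, by a margin of m31 replicate 3 (1.63%) over control replicate 2 (1.62%) that is inside their counting error. The log2 ratio was higher by 0.56 ± 0.20 (SE), with an exact two-sided permutation p = 0.0286 over the 70 arrangements, the smallest they allow. Psmb10 was at 8.87, 9.35, 9.93 and 8.46% of Psmb7 with m31 and at 8.43, 8.08, 7.22 and 6.23% in controls. These groups did not overlap either, with m31 replicate 4 (8.46%) next to control replicate 1 (8.43%), and the log2 ratio was higher by 0.30 ± 0.11 (exact permutation p = 0.0286). Psmb8 was at 3.99, 5.42, 4.06 and 4.72% of Psmb5 with m31 and at 4.19, 3.26, 4.37 and 2.55% in controls. Here 2 of 4 m31 libraries exceeded every control library, and the log2 ratio differed by 0.36 ± 0.21 (exact permutation p = 0.171). Adjusted over these 3 ratios, the permutation p was 0.0429 for Psmb9 to Psmb6, 0.0429 for Psmb10 to Psmb7 and 0.171 for Psmb8 to Psmb5. Both calls ended under quantile normalisation (exact permutation p adjusted over the 3 ratios 0.171 for each). Both also ended when any 1 of the 8 libraries was left out, with an adjusted exact permutation p of 0.0857 for Psmb9 to Psmb6 and of 0.0857 to 0.171 for Psmb10 to Psmb7, and both log2 ratios stayed positive. With 1 library left out, the 35 arrangements allow no unadjusted exact permutation p below 0.0286. Psmb9 to Psmb6 was at that limit without m31 replicate 1 (log2 ratio 0.62), so the end of a call there need not mean a smaller difference. With any 1 library left out, the groups of both pairs stayed without overlap, which leaving out a library cannot change. The blood-lineage marker sum, at 5042 to 12285 with m31 and 3735 to 8504 in controls, had positive estimates in 20 of 20 tested genes, and its part in these ratios was not tested.

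**Figure D5:**
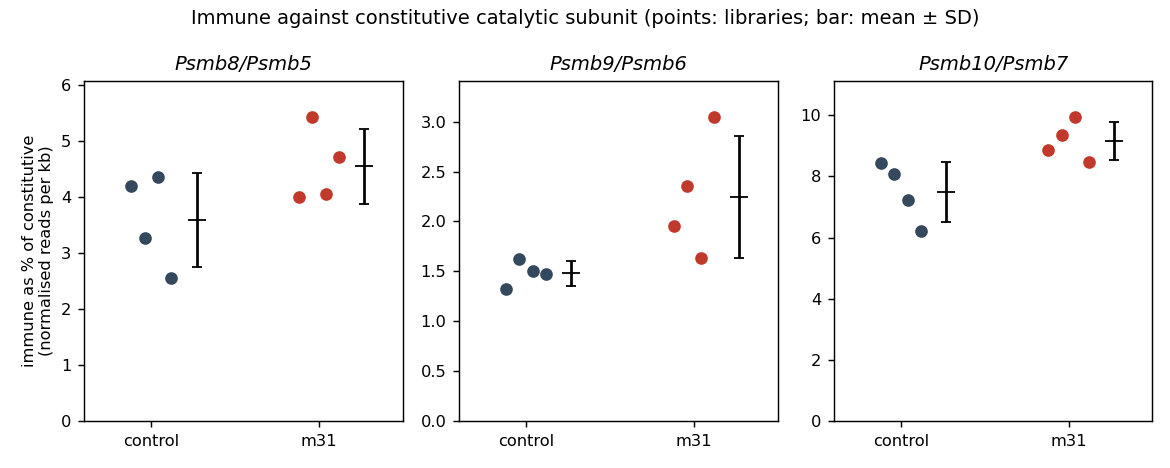
Level of each immune catalytic subunit as percent of the constitutive subunit it replaces, per kb (y axes from 0), in the 4 control and 4 m31 libraries, with mean ± SD beside the points. The m31 libraries lie above the control libraries for Psmb9/Psmb6 and Psmb10/Psmb7 by a narrow margin, and overlap with them for Psmb8/Psmb5.

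The remaining core subunits, 7 alpha and 4 non-catalytic beta genes, had 11 negative estimates of 11 and 0 past the threshold. The alpha ring forms the gate of the core particle, and its log2 differences ran from -0.21 to -0.03 with a median of -0.09. Psma5 was the lowest of them, at 1047, 945, 1035 and 1079 normalised reads with m31 and 1283, 1078, 1173 and 1221 in controls. The groups met at m31 replicate 4 and control replicate 2 (log2 difference -0.21 ± 0.08, limma's adjusted p = 0.720). Psma6 had the difference nearest 0, at 2331, 2184, 2319 and 2197 with m31 and 2529, 2305, 2068 and 2357 in controls, and the groups overlapped (log2 difference -0.03 ± 0.08). The other alpha genes overlapped between groups. Psma1 ranged over 1535 to 1674 with m31 and 1642 to 2009 in controls (log2 difference -0.12 ± 0.09). Psma4 had a range of 1525 to 1736 with m31 and 1659.9 to 2095 in controls (log2 difference -0.14 ± 0.09). Psma2, Psma3 and Psma7 had log2 differences of -0.09 ± 0.08, -0.06 ± 0.08 and -0.04 ± 0.09. Psmb1 to Psmb4, which hold the beta ring together, had a median of -0.10. Their lowest was Psmb3, at 2012, 1923, 1976 and 1833 with m31 and 2180.3, 2127, 1878 and 2219 in controls. Their highest was Psmb4, with 2826, 2899, 2966 and 2733 against 3302, 3084, 2580.4 and 3169. In both, control replicate 3 was the 1 control library not above all m31 libraries, inside their range for Psmb3 and below it for Psmb4. Psmb1 and Psmb2 lay between them, with log2 differences of -0.09 ± 0.07 and -0.11 ± 0.07.

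The base of the regulatory particle holds a ring of 6 ATPases, Psmc1 to Psmc6, that unfold the substrate, and all 6 estimates were negative with a median of -0.10. Psmc6 had the lowest, standing at 1886, 1748, 1983 and 2012 normalised reads with m31 and at 2146, 2159.7, 2166 and 2650.4 in controls. Every m31 library was below every control library, with control replicate 4 well above the other 3 (log2 difference -0.25 ± 0.09, limma's adjusted p = 0.698, and -0.18 without control replicate 4). Psmc1 also did not overlap, at 3096 to 3279.6 with m31 and 3399.7 to 3802 in controls (log2 difference -0.15 ± 0.07). Psmc2 had the highest estimate, at 3224, 2985, 3154 and 3148 against 3334, 3237, 2922 and 3387 (log2 difference -0.04 ± 0.07), and its groups overlapped. Psmc3, the ATPase gene with the most reads, ranged over 4804 to 5094 with m31 and 4658 to 5722 in controls, and 3 control libraries lay above every m31 library (log2 difference -0.13 ± 0.08). Psmc4 and Psmc5 had log2 differences of -0.08 ± 0.08 and -0.07 ± 0.08 and overlapped between groups. Among the 3 base subunits without ATPase activity, the scaffold gene Psmd2 was the most abundant member by reads and nearly level between guides, at 8263, 8389, 8592 and 8016 against 8232, 8739, 8723 and 8511 (log2 difference -0.04 ± 0.07). Psmd4, a receptor for ubiquitin chains, stood at 3851, 3843, 3685 and 3819 with m31 and 4332, 4279, 3866 and 4331 in controls. Its groups did not overlap, with control replicate 3 next to the m31 libraries (log2 difference -0.14 ± 0.07, limma's adjusted p = 0.753). Psmd1, the other large scaffold of the base, ranged over 3998 to 4218 with m31 and 3977 to 4889 in controls, with its 2 highest values in control replicates 3 and 4 (log2 difference -0.09 ± 0.08).

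The lid, which removes ubiquitin chains from the substrate, was the 1 class with estimates of both signs: 5 of 8 were negative and 3 positive, with a median of -0.07. Psmd13 had the lowest, at 1940.1, 1846, 1882 and 1713 normalised reads with m31 and 2212, 2031, 1944 and 2112 in controls. The groups did not overlap, by the margin of m31 replicate 1 under control replicate 3 (log2 difference -0.17 ± 0.08, limma's adjusted p = 0.733). Psmd6 did not overlap either, at 2850.0 to 3118 against 3187 to 3803 (log2 difference -0.16 ± 0.08). Psmd3 had the highest estimate, at 3973, 4117, 3958 and 3484 with m31 and 3643, 4047, 3706 and 3567 in controls, and m31 replicate 4 was the lowest of all 8 (log2 difference 0.05 ± 0.08). Psmd14, the deubiquitinase of the lid, had 1133 ± 39.6 with m31 and 1213 ± 121 in controls (SD, n = 4 each, log2 difference -0.09 ± 0.09). Psmd8 varied most within the lid, over 4687 to 5525 with m31 and 4348 to 6194 in controls, and the control range enclosed the m31 range (log2 difference 0.01 ± 0.11). Psmd7, the inactive partner of Psmd14, had a range of 3439 to 3734 with m31 and 3519.9 to 4367 in controls (log2 difference -0.06 ± 0.09). Psmd11 and Psmd12 had log2 differences of 0.03 ± 0.07 and -0.10 ± 0.09. These groups overlapped, and the sign of Psmd7, Psmd8 and Psmd11 changed when single libraries were left out or, for Psmd8 and Psmd11, when libraries were recentred on their medians.

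The PA28 genes are induced by interferon-gamma like the immune catalytic subunits. Both PA28 estimates were negative, but that of Psme2 was near 0 and changed sign without control replicate 1. Psme1 stood at 729, 733, 849 and 795 normalised reads with m31 and at 905, 909, 949.7 and 981 in controls. All m31 libraries were below all control libraries, and the log2 difference of -0.27 ± 0.08, or -17.1%, was the lowest of the 36, with the smallest adjusted p among them (limma's adjusted p = 0.647). Its partner Psme2 stood at 496, 442, 478 and 478 with m31 and at 522, 473, 445 and 499.7 in controls, and the groups overlapped (log2 difference -0.03 ± 0.09, limma's adjusted p = 0.962). Psme1 per kb was 1.27, 1.43, 1.54 and 1.44 times Psme2 with m31 and 1.499, 1.66, 1.85 and 1.70 times in controls. This ratio was looked at after the values were seen, and its groups overlapped at m31 replicate 3 and control replicate 1. A near copy of Psme2, Psme2b, was at 23.4 to 42.0 normalised reads, and how reads were divided between such copies is not given in the sources used here.

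Other genes of the pathway were read from lists fixed beside the members. Of 18 tested genes of further subunits, assembly chaperones and proteasome-bound enzymes, 0 passed in either direction, 17 estimates were negative and the median was -0.08. Pomp, the maturation factor of the core particle, had 1454 normalised reads on average with m31 and 1526 in controls (log2 difference -0.07). The alternative cap Psme4 had a log2 difference of -0.08, and Sem1, a small lid subunit, of -0.14. Psmg4, an assembly chaperone, had the 1 positive estimate (0.27 ± 0.17, limma's adjusted p = 0.809). Of 15 tested genes for proteasome transcription and ubiquitin supply, 0 passed, with 9 negative and 6 positive estimates. Nfe2l1, the transcription factor that raises subunit genes when proteasome activity is short, had 21822 normalised reads with m31 and 22318 in controls (log2 difference -0.03 ± 0.08). Ddi2, the protease that releases NFE2L1 from the membrane, stood at 1502, 1314, 1455 and 1489 with m31 and at 1565, 1730.4, 1724 and 1687 in controls. Its groups did not overlap (log2 difference -0.22 ± 0.08, limma's adjusted p = 0.698).

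Genes that share regulation or function with the immune subunits were also read. Of 14 MHC class I presentation genes 0 passed, 13 estimates were positive and the median was 0.13. Tap1, the peptide transporter gene beside Psmb9, had 230.5 normalised reads with m31 and 190.2 in controls (log2 difference 0.24 ± 0.18), and Tap2 stood at 229, 276, 215 and 252 against 236, 219, 179 and 199.9. Of 22 interferon response genes other than Psmb8 to Psmb10, 0 passed, with 14 positive and 8 negative estimates and a median of 0.12. Irf8 stood at 201, 201, 197 and 298 with m31 and at 149.8, 200.3, 145 and 119.9 in controls (log2 difference 0.54 ± 0.18, limma's adjusted p = 0.669), and Irf7, another interferon regulatory factor, at 424, 243, 156 and 309 against 151, 174, 115 and 201 (log2 difference 0.75 ± 0.28). Irf1, which takes part in interferon-gamma induction of Psmb9, had a log2 difference of 0.07 ± 0.12. Others of the list had negative estimates: Irgm2, an interferon-induced GTPase, had 530, 610, 381 and 627 with m31 and 566, 635, 679.9 and 779.5 in controls, and its groups overlapped (log2 difference -0.32 ± 0.16, limma's adjusted p = 0.764). Isg15, Iigp1 and Ifit1 had log2 differences of -0.31 ± 0.26, -0.28 ± 0.24 and -0.21 ± 0.27. Among the other cell type lists, the median log2 difference was 0.48 for blood-lineage cells, 0.36 for fibro-adipogenic progenitors and tendon, 0.22 for pericytes and smooth muscle, 0.09 for adipocytes, 0.07 for endothelium, 0.06 for satellite cells and -0.36 for Schwann cells, with 0 genes past the threshold in each.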

How the data were processed

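Total RNA of 8 gastrocnemius samples was sequenced after NEBNext Ultra library preparation, per the labels' protocols. The authors deposited 1 table of size-factor-normalised read signal per gene (reads scaled by a single factor for each sample). STAR and DESeq2, both without a version, appear in the submitters' processing notes, as does the build GRCh38.p12, although the identifiers are mouse. Counter, strand setting and annotation were not given in the sources used here. Groups and replicate numbers come from sample titles, and 3 further value columns were not used. The 5 construct entries were kept out. All values were whole multiples of 1 read (100% within 0.01), so depth was recovered.

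The test was limma 3.58.1 (R 4.3.3, intensity trend, all 8 libraries) on log2 of the value plus a pseudocount of 1, for 15960 genes with a mean of at least 10, with Benjamini-Hochberg adjustment across these genes at 0.05. The median SE was 0.15. Ratios of pairs used exact permutation tests. The test was checked on simulated counts. The changes simulated were larger than any member's estimate by limma from all 8 libraries, so the check does not cover differences of the members' size. Alternatives were DESeq2 1.42.0 and edgeR 4.0.16 on recovered reads, other scalings, pseudocounts (0.5, 5), minima (none, 50), a replicate block and libraries left out. Members and lists were chosen with earlier results of these data known. All 36 members are accounted for; per-library values are given for Psmb5 to Psmb10, Psme1, Psme2 and the extremes of each other class, and of other lists up to 4 genes with the smallest unadjusted p; some genes are not reported here. A few pathway genes (Pomp, Psme4, Nfe2l1, Tap1, Irf1) were picked for their role and Isg15, Iigp1 and Ifit1 for their sign, after values were seen, as were the further members described. No replicates were alike within sampling noise (chi-square per degree of freedom 14.3 to 57.9). Intervals cover counting error only.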

Additional observations from a re-analysis of the deposited data

Results flagged for a closer look

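In 8 of 78 groups of 4 libraries examined (the 36 genes and the 3 ratios in each guide group), 1 library lay far from the other 3, by a gap above Dixon's 95% critical value. Chance gives this in about 1 in 20 groups, and the genes share their libraries. Control replicate 4 was high for Psma1 (2009 normalised reads, others 1642 to 1699.9), Psmc6 (2650.4, others 2146 to 2166), Psmd6 (3803, others 3187 to 3288) and Psmd7 (4367, others 3519.9 to 3646). Control replicate 3 was low for Psmc3 (4658, others 5576 to 5722) and Psmd4 (3866, others 4279 to 4332). Among the m31 libraries, replicate 2 was low for Psma4 (1525, others 1711 to 1736) and replicate 3 was low for Psmb7 (2677, others 2934 to 2974).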

How the results depend on the processing

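Under 18 alternative settings, 0 of 648 member values passed the threshold (smallest adjusted p 0.323, limma, DESeq2 or edgeR), and 31 of 36 members kept their direction. The reversed values were all within 0.07 of 0. For Psmd8 they were -0.025 with recentring on library medians, -0.065 without m31 replicate 4 and control replicate 3, -0.00087 with edgeR, and -0.065 to 0.10 with 1 library left out. For Psmd11 they were -0.00020 with recentring and -0.0080 to 0.068 with 1 library left out. With 1 library or both of these left out, Psma6 ranged from -0.086 to 0.011, Psme2 from -0.079 to 0.0024 and Psmd7 from -0.102 to 0.017, with the reversals without control replicate 1 for the first 2 and without control replicate 4 for Psmd7. Recentring moved the median of the 36 to -0.12, and leaving out 1 library gave -0.14 to -0.05. The number of all genes called was 31 with DESeq2, 3 without m31 replicate 4 and control replicate 3, and 1 to 2 with 1 library left out. Members whose groups did not overlap with m31 lower numbered 6 to 19 with 1 library left out and 21 without both. The log2 ratio of Psmb8 to Psmb5 was 0.21 to 0.46 with 1 library left out. That of Psmb9 to Psmb6 was 0.40 to 0.70 with 1 library left out, 0.49 under quantile normalisation and 0.42 without both libraries (unadjusted exact permutation p = 0.100, the smallest 20 arrangements allow). That of Psmb10 to Psmb7 was 0.21 to 0.36, 0.24 and 0.32 in the same settings (the last with unadjusted exact permutation p = 0.100). With a replicate block the ratios stayed at 0.56 and 0.30, with unadjusted exact permutation p = 0.125, the smallest that 4 pairs allow. Replicate numbers did not pair the libraries: same-number correlations were -0.18 to 0.05, 0 of 4 m31 libraries correlated best with their own number, and the block left 0 members called. The causes were not tested. At 41 reads, the lowest of any member, depth limited Psmb8 and Psmb9 most.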
